A study of Homo sapiens with 18 samples.

Results

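The mitochondrial ribosome is built in the matrix of mitochondria from rRNAs made there and from proteins encoded in the nucleus. It translates the few mitochondrial mRNAs, which encode membrane subunits of the oxidative phosphorylation complexes. Proteins of its large subunit carry MRPL symbols and those of its small subunit MRPS symbols. Some are homologues of bacterial ribosomal proteins and others occur in mitochondrial ribosomes and not in bacterial ones. All of these proteins have to be made in the cytosol and imported, so their mRNAs are part of the polyadenylated RNA measured here.

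The genes described are the protein-coding genes whose symbol is MRPL or MRPS followed by a number. There are 78 such genes in the annotation, and 77 of them have an identifier in the count tables. A member was kept when at least 10 reads were counted in at least 3 of the 18 libraries, which left 74 of 63677 genes. MRPL45 was not analysed here, since its annotated identifier was not matched in the tables. MRPS21 had 0 reads in every library, MRPL30 had between 0 and 2, and MRPS24 had between 0 and 5. MRPS21 has 8 named pseudogenes, and MRPS24 and MRPL30 share 23.2% and 19.5% of their exon bases with other genes annotated on the same strand. The part of these copies and shared bases in the low counts was not tested. Of the kept members, 29 are large-subunit proteins with a bacterial homologue, 20 are large-subunit proteins specific to mitochondria, 14 are small-subunit proteins with a bacterial homologue and 10 are small-subunit proteins specific to mitochondria. The remaining one, MRPS36, is named as a ribosomal protein but encodes a component of the mitochondrial ketoglutarate dehydrogenase complex.

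The study sequenced polyadenylated RNA of HAP1, a near-haploid human cell line that came from a chronic myeloid leukaemia line. The parental line (WT), a line labelled ATG7KO and a line labelled RB1CC1KO or FIP200KO were used. ATG7 activates the ubiquitin-like proteins that build autophagosome membranes, and RB1CC1 (FIP200) belongs to the kinase complex that starts autophagy. All 3 lines were grown in IMDM with 10% heat-inactivated serum, penicillin and streptomycin (full medium), or held for 6 h in EBSS, a salt solution that lacks amino acids and serum. Each of the 6 groups had 3 libraries from independent biological replicates. The number of clones behind each line was not given in the sources used here.

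Depth, as reads in genes, came to 4892072 in ATG7KO EBSS replicate 3 and 26005942 in RB1CC1KO EBSS replicate 2, with the other 16 libraries between 11994110 and 19073798. ATG7 was at 15.6 ± 1.30 CPM (counts scaled to library size by the TMM method, SD, n = 3) in WT and 4.02 ± 0.44 in ATG7KO in full medium, and at 16.1 ± 1.68 and 10.4 ± 0.53 in EBSS. RB1CC1 mRNA was not lower in the line labelled as its knockout (157 ± 12.7 against 105 ± 10.3 CPM in WT in full medium, SD, n = 3). That line is written as RB1CC1KO-labelled. Protein was not measured here, so these mRNA levels do not decide whether ATG7 or RB1CC1 was lost in its line. GATA1 and CD3E among 12 blood-cell markers and DCN and LUM among 8 fibroblast markers had 0 reads in every library. The summed level of the blood-cell markers ranged from 63.9 to 73.8 CPM in WT, 22.2 to 23.0 in ATG7KO and 71.8 to 79.5 in RB1CC1KO-labelled cells in full medium, and from 33.5 to 39.9, 9.97 to 11.3 and 29.7 to 32.7 in EBSS. The epithelial and fibroblast lists also differed between the lines, with epithelial sums of 102 to 113, 62.5 to 67.0 and 71.8 to 81.8 CPM and fibroblast sums of 664 to 702, 963 to 1016 and 569 to 603 CPM in full medium in the same order. In EBSS the epithelial sums were 116 to 123, 59.6 to 66.7 and 85.6 to 96.2 CPM. The fibroblast sums in EBSS were 1040 to 1071, 1387 to 1444 and 1015 to 1110 CPM, above every full-medium library of the same line. VIM made up most of these sums, with means of 527, 779 and 507 CPM in full medium and 927, 1219 and 996 in EBSS. The other tested fibroblast markers, COL1A1, SPARC, THY1 and PDGFRA, had lower means in EBSS in every line, so the list as a whole did not rise. The part of these marker genes in the results below was not tested.

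In WT cells in full medium the members spanned a 116-fold range of level per length. The level per length (RPKM, TMM-scaled CPM per kilobase of annotated exon) had a median of 19.2 over the 74 members. The length joins all annotated exons of a gene, and for some members it far exceeds the principal transcript. It was 6432 bases against 1019 for MRPL46 and 2549 against 1483 for MRPL37, but 1097 against 1024 for MRPS34. The order below therefore holds for this length and can differ with another. MRPS34, a small-subunit protein specific to mitochondria, was highest at 104 ± 5.07 RPKM (SD, n = 3). MRPL37 followed at 80.2 ± 3.28 and MRPL3, a homologue of bacterial L3, at 73.99 ± 4.388, and the libraries of MRPL37 and MRPL3 overlapped. MRPL51 (66.5 ± 4.28) and MRPL15 (66.5 ± 1.31) did not differ beyond their spread either. The lowest were MRPS17 at 4.65 ± 0.35, MRPL46 at 1.85 ± 0.28, MRPL53 at 1.16 ± 0.59 and MRPL38 at 0.90 ± 0.11 RPKM. Between the fifth highest and the fifth lowest member the range was 13.9-fold. MRPL38, MRPL53 and MRPS17 share 37.5%, 45.2% and 27.0% of their exon bases with other genes on the same strand, as do MRPL12 (68.2%), MRPS28 (35.8%) and MRPL33 (21.1%), and reads in shared bases may have been left out of their counts. Of the kept members, 31 have at least 1 named pseudogene by symbol, with 64 pseudogenes in all, so reads may also have been divided between copies.

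Most mitochondrial ribosomal protein mRNAs were lower in EBSS, in all 3 lines. In WT, 45 of the 74 members were lower and 5 were higher in EBSS than in full medium (edgeR's quasi-likelihood test, Benjamini-Hochberg adjusted p below 0.05 over all 15179 genes tested). Over all genes tested, 32.1% were lower, 32.4% were higher and 64.5% were called in either direction. In ATG7KO, 46 members were lower and 5 higher, against 30.6% and 32.3% of all genes (62.9% in either direction). In RB1CC1KO-labelled cells, 50 were lower and 4 higher, against 33.3% and 31.9% of all genes (65.1% in either direction). The median log2 fold change of the members was -0.36 in WT, -0.39 in ATG7KO and -0.36 in RB1CC1KO-labelled cells, and that of all genes tested was -0.02, -0.01 and -0.03. These values are scaled to the library, so fewer cells of a kind and less of an mRNA per cell cannot be told apart.

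The direction of the change was shared by the lines. There were 41 members that fell in every line, 55.4% of the members against 23.3% of all genes tested. MRPL48 alone rose in every line, against 25.2% of all genes, and with upper-quartile scaling it was called in none. A further 21 members were called in 1 or 2 lines, 11 were called in none, and 0 were called in opposite directions in different lines. Across the 74 members the log2 fold changes of WT and ATG7KO had a Pearson r of 0.89, those of WT and RB1CC1KO-labelled cells 0.90, and those of the latter and ATG7KO 0.94. These are descriptions across genes, which are not independent replicates, and each line has libraries of its own in both media. The libraries of the 2 media did not overlap, with EBSS below, for 46 members in WT, 50 in ATG7KO and 48 in RB1CC1KO-labelled cells, against 33.5%, 33.0% and 34.3% of all genes. With EBSS above, they did not overlap for 6, 8 and 3 members, against 33.5%, 34.3% and 32.3%. Of the 50, 51 and 54 calls in WT, ATG7KO and RB1CC1KO-labelled cells, 43, 45 and 45 held when any one library was left out.

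**Figure D1:**
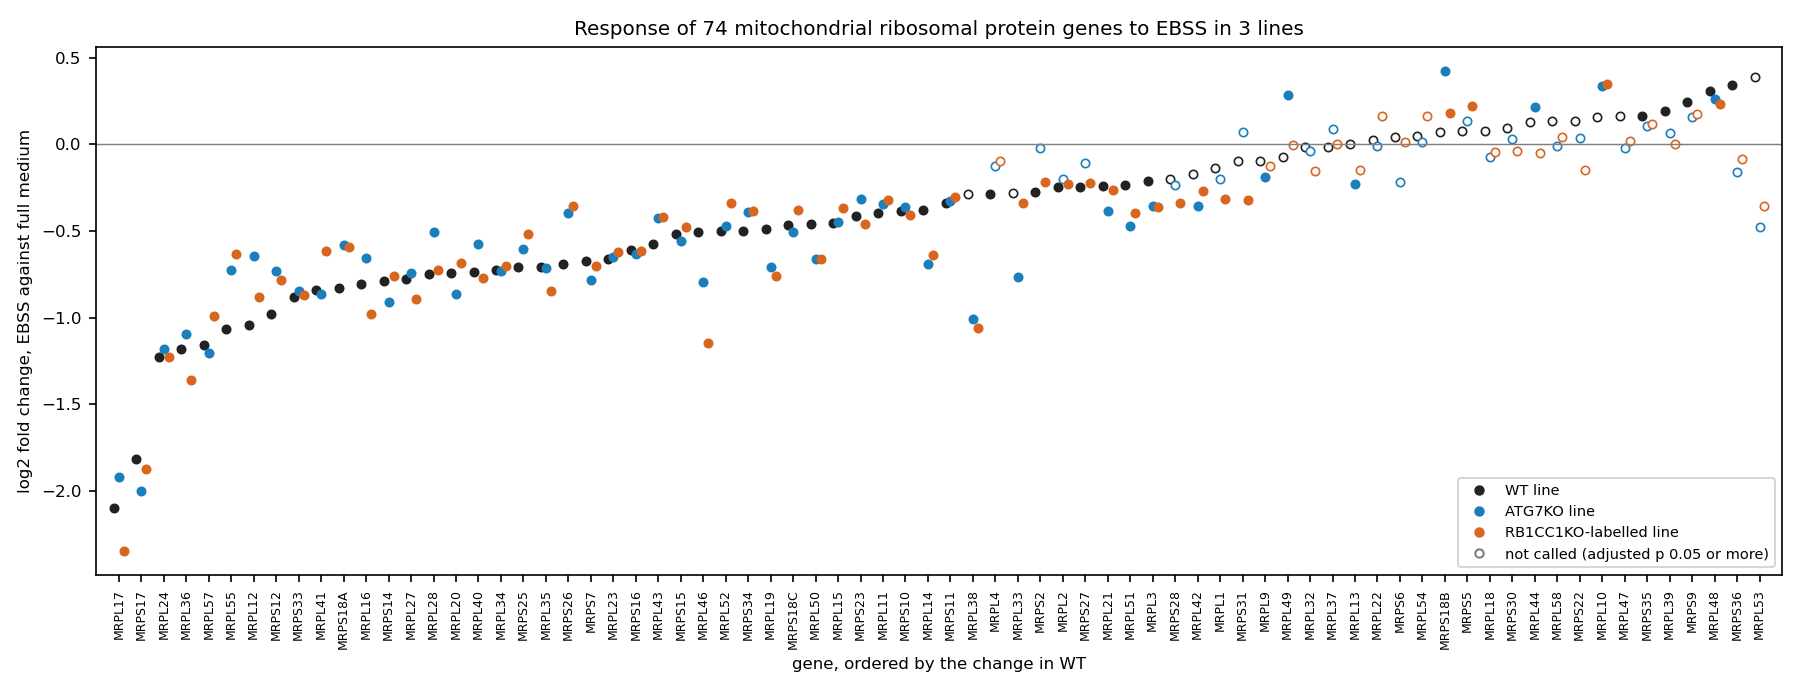
Log2 fold change in EBSS against full medium (vertical axis) of each of the 74 members (horizontal axis, ordered by the value in WT), with black points for WT, blue for ATG7KO and orange for RB1CC1KO-labelled cells, filled where called and open where not. Most points lie below 0 in all 3 lines, MRPL17 and MRPS17 lie lowest with values between -1.81 and -2.34, and MRPL48 is filled and above 0 in every line.

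The choice of scaling moved the members and all genes together. With upper-quartile scaling in place of TMM, the median of all genes tested shifted by -0.15 in WT, -0.16 in ATG7KO and -0.14 in RB1CC1KO-labelled cells on the log2 scale. Members called lower then numbered 53, 53 and 59, and members called higher 0, 2 and 1, while 41.7%, 41.3% and 42.5% of all genes were lower. Under TMM the median of the members lay 0.34, 0.39 and 0.33 below that of all genes (differences of -0.34, -0.39 and -0.33), and it lay below it under upper-quartile scaling too.

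The whole group can also be read as a sum. As shares of the reads in genes, without TMM scaling, the 74 members made up 0.4377% to 0.4511% in WT in full medium. In EBSS they made up 0.315% to 0.3311% in WT. In full medium and EBSS the shares were 0.442% to 0.4465% and 0.3046% to 0.3367% in ATG7KO. In RB1CC1KO-labelled cells they were 0.4393% to 0.4772% and 0.316% to 0.3316%. The sums that follow are TMM-scaled CPM, which are not shares. Summed over the 74 members, WT libraries held 4134 to 4268 CPM in full medium (mean 4186 ± 72.1, SD, n = 3) and 3275 to 3492 in EBSS (3388 ± 109). ATG7KO held 4105 to 4146 (4129 ± 21.6) and 3212 to 3538 (3359 ± 165). RB1CC1KO-labelled cells held 4264 to 4531 (4390 ± 134) and 3457 to 3604 (3514 ± 78.8). In every line the highest EBSS library lay below the lowest library in full medium. Summed by class, the 29 large-subunit proteins with a bacterial homologue went from 1718 ± 47.7 to 1294 ± 49.9 CPM in WT, and the 20 large-subunit proteins specific to mitochondria from 1009 ± 15.1 to 906 ± 32.3. The 14 small-subunit proteins with a bacterial homologue went from 793 ± 8.62 to 622 ± 15.4 CPM, and the 10 small-subunit proteins specific to mitochondria from 657 ± 10.7 to 555 ± 12.6.

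**Figure D2:**
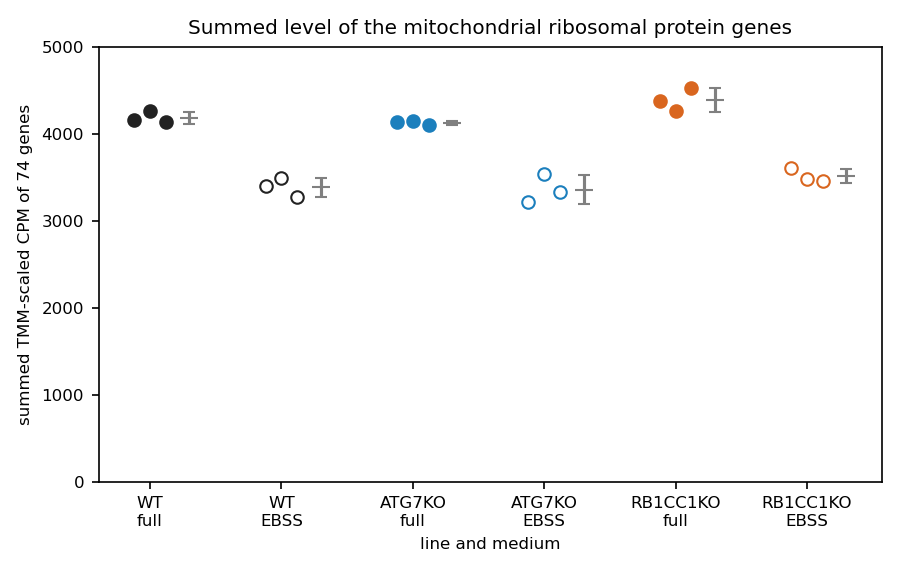
Summed TMM-scaled CPM of the 74 members (vertical axis, from 0) in each library (points) by line and medium (horizontal axis), with the mean and SD of 3 libraries in grey, filled points for full medium and open points for EBSS. The 9 EBSS libraries lie between 3212 and 3604 and the 9 libraries in full medium between 4105 and 4531.

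Each structural class held members that fell. Over all genes tested, 32.1% were lower in WT, 30.6% in ATG7KO, 33.3% in RB1CC1KO-labelled cells and 23.3% in every line. Of the large-subunit proteins with a bacterial homologue, 20 of 29 were lower in WT, 21 in ATG7KO and 21 in RB1CC1KO-labelled cells, with 18 of 29 lower in every line. Of the large-subunit proteins specific to mitochondria, 9, 11 and 11 of 20 were lower, 9 of them in every line. Of the small-subunit proteins with a bacterial homologue, 10, 9 and 11 of 14 were lower, 9 of them in every line. Of the small-subunit proteins specific to mitochondria, 6, 5 and 7 of 10 were lower, 5 of them in every line. The differences between these classes were not tested.

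The largest decrease in WT and in RB1CC1KO-labelled cells was in MRPL17, a large-subunit homologue of bacterial L17, which had the next largest after MRPS17 in ATG7KO. Its level was 51.8, 59.2 and 58.2 CPM in the 3 WT libraries in full medium and 12.8, 13.5 and 13.3 in EBSS. In ATG7KO it was 49.1, 53.6 and 54.5 CPM in full medium and 10.7, 16.9 and 14.2 in EBSS, and in RB1CC1KO-labelled cells 50.1, 49.0 and 56.6 against 11.2, 9.57 and 9.99. No EBSS library came near any library in full medium. The log2 fold change was -2.10 (SE 0.11, adjusted p = 1.55e-18 by edgeR) in WT, -1.92 (SE 0.11, adjusted p = 7.11e-17) in ATG7KO and -2.34 (SE 0.11, adjusted p = 7.11e-20) in RB1CC1KO-labelled cells.

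MRPS17, the small-subunit homologue of bacterial S17, had the next largest change in WT. It went from 9.21, 10.2 and 10.7 CPM to 3.33, 2.32 and 2.95 in WT, from 7.79, 11.1 and 11.7 to 2.65, 2.85 and 1.49 in ATG7KO, and from 12.7, 11.5 and 12.5 to 4.03, 3.35 and 2.53 in RB1CC1KO-labelled cells. The media did not overlap in any line, though the counts were low, with 7 reads in the library that had fewest. The log2 fold changes were -1.81, -2.00 and -1.87 in the order WT, ATG7KO and RB1CC1KO-labelled (SE 0.18, 0.20 and 0.17).

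Both genes share this pattern with 3 further large-subunit members that fell by more than 2-fold in WT and ATG7KO. MRPL24, the homologue of bacterial L24, was at 47.7, 49.9 and 42.1 CPM in WT in full medium and 19.8, 21.0 and 19.2 in EBSS, a log2 fold change of -1.22 (SE 0.09, edgeR adjusted p = 6.86e-14). MRPL36, homologous to the very small bacterial protein L36, was at 39.7, 35.8 and 33.2 CPM and then 15.0, 16.8 and 16.2, a log2 fold change of -1.18 (SE 0.10). MRPL57, a small protein specific to mitochondria, was at 29.97, 33.98 and 28.66 CPM and then 12.5, 14.9 and 14.2, a log2 fold change of -1.16 (SE 0.10). In ATG7KO the 3 genes changed by -1.18, -1.09 and -1.20, and in RB1CC1KO-labelled cells by -1.22, -1.36 and -0.99, each past the test.

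Members at least 2-fold lower numbered 7 in WT, 6 in ATG7KO and 6 in RB1CC1KO-labelled cells, against 9.93%, 9.66% and 11.9% of all genes tested, so large decreases were about as frequent among the members as among all genes. In WT they also included MRPL55, a large-subunit homologue of bacterial L31 (18.1 ± 1.19 to 8.66 ± 0.88 CPM, log2 fold change -1.07), and MRPL12, the stalk protein that recruits translation factors (30.8 ± 1.83 to 15.0 ± 1.65 CPM, -1.04). In ATG7KO and RB1CC1KO-labelled cells these 2 genes changed by -0.73 and -0.63 and by -0.64 and -0.88. MRPS12, homologous to the decoding-site protein S12, changed by -0.98 in WT, -0.73 in ATG7KO and -0.78 in RB1CC1KO-labelled cells.

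**Figure D3:**
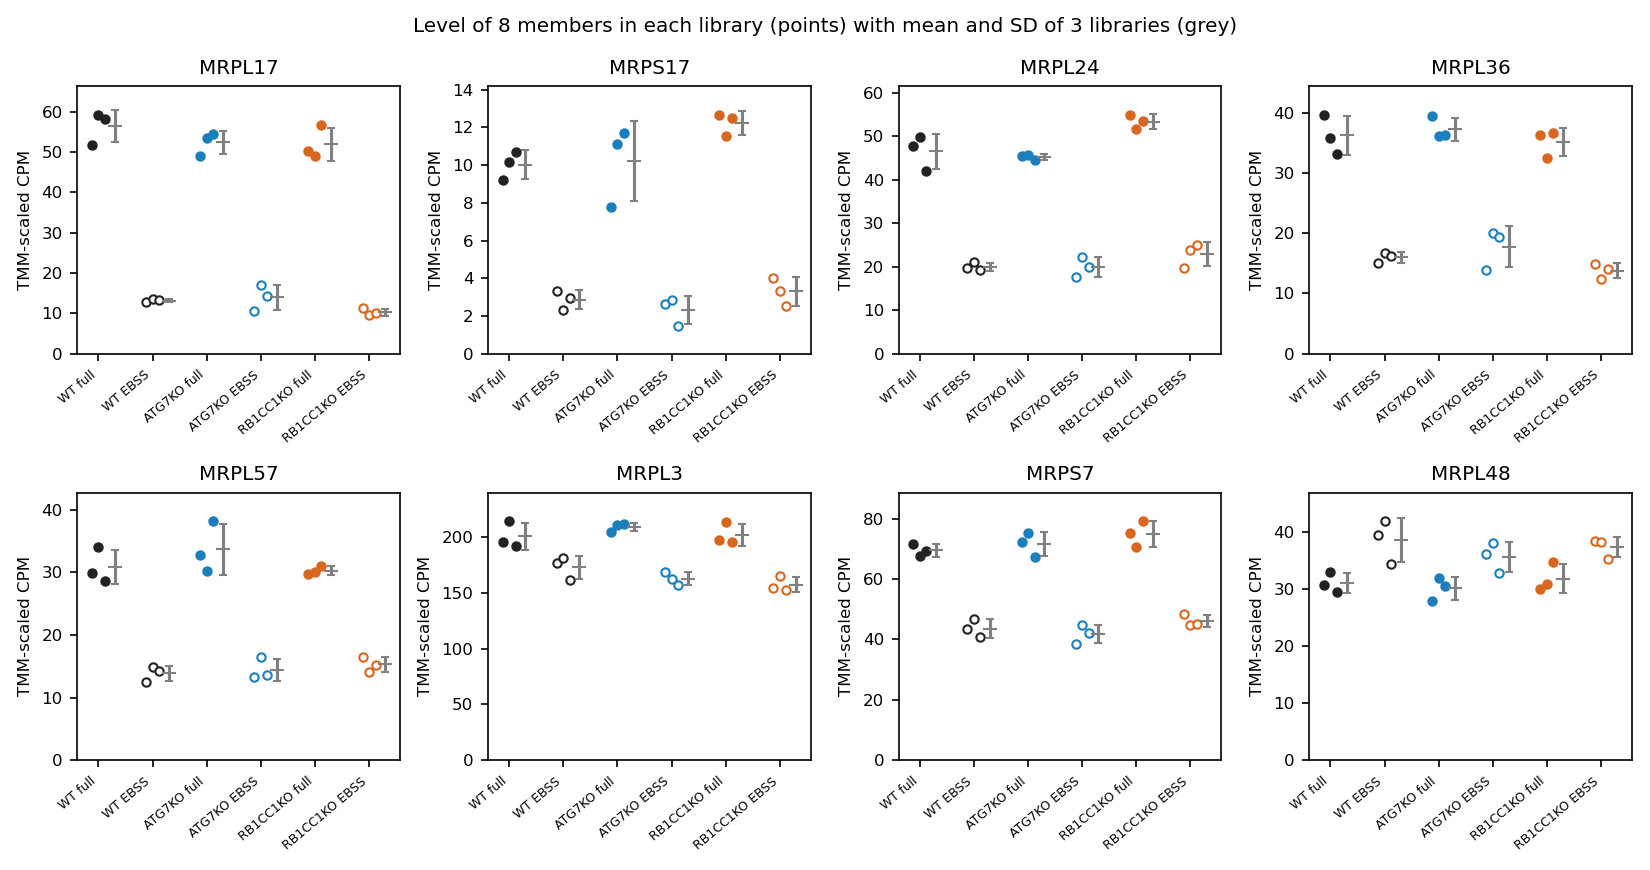
TMM-scaled CPM (vertical axes, from 0) of 8 members in each library (points) by line and medium (horizontal axes), with the mean and SD of 3 libraries in grey, filled points for full medium and open points for EBSS. MRPL17 lies between 49.0 and 59.2 CPM in full medium and between 9.57 and 16.9 in EBSS, MRPL3 lies slightly lower in EBSS, and MRPL48 is higher in EBSS.

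Some large decreases appeared in the other lines. MRPL46, a large-subunit protein specific to mitochondria, changed by -0.51 in WT (SE 0.15), -0.79 in ATG7KO (SE 0.16) and -1.15 in RB1CC1KO-labelled cells (SE 0.15). MRPL38, another, was at 3.73, 2.93 and 3.23 CPM in WT in full medium and 2.98, 2.50 and 2.56 in EBSS, which did not pass the test (-0.29), but it fell in ATG7KO (-1.01, SE 0.23) and in RB1CC1KO-labelled cells (-1.06, SE 0.22). None of the members passed the test of a difference in response between lines (below), these 2 included. MRPS14, the homologue of bacterial S14, changed by -0.79, -0.91 and -0.76, MRPL41 by -0.84, -0.86 and -0.61, and MRPL16, the homologue of bacterial L16, by -0.81, -0.66 and -0.98, in the order WT, ATG7KO and RB1CC1KO-labelled.

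MRPL3 of the large subunit and MRPS7 of the small subunit fell in every line by different amounts. In WT the median of the proteins with a bacterial homologue was -0.40 in the large subunit and -0.43 in the small. These 2 genes therefore do not show a difference between the subunits. MRPL3 was at 196, 215 and 193 CPM in WT in full medium and 177, 181 and 162 in EBSS, a log2 fold change of -0.21 (SE 0.06, edgeR adjusted p = 0.00238). The change was -0.36 in ATG7KO and -0.36 in RB1CC1KO-labelled cells (SE 0.06 in each). MRPS7, homologous to the rRNA-binding protein S7 of the bacterial small subunit, was at 71.7, 67.5 and 69.3 CPM in WT and then 43.3, 46.7 and 40.7, a log2 fold change of -0.67 (SE 0.07, adjusted p = 6.68e-10). In ATG7KO and RB1CC1KO-labelled cells it changed by -0.78 and -0.70. The EBSS libraries of both genes lay below all libraries in full medium within each line.

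The 3 MRPS18 paralogues, which all derive from bacterial S18, did not move alike. In the classes above, MRPS18C is counted as having a bacterial homologue, and MRPS18A and MRPS18B as specific to mitochondria in spite of this origin. MRPS18A sits in the large subunit in spite of its name and fell in every line, by -0.83, -0.58 and -0.59 in the order WT, ATG7KO and RB1CC1KO-labelled. MRPS18C, a small-subunit protein, fell by less (-0.47, -0.51 and -0.38). MRPS18B, also of the small subunit, was at 87.8, 77.4 and 91.2 CPM in WT in full medium and 93.0, 88.4 and 87.1 in EBSS, which overlapped (log2 fold change 0.07, SE 0.07). In ATG7KO it rose from 72.0, 71.9 and 67.4 to 91.0, 97.3 and 95.3 CPM without overlap (0.42, SE 0.07, edgeR adjusted p = 3.06e-06). In RB1CC1KO-labelled cells it was called higher (0.18, edgeR adjusted p = 0.0211) but the libraries overlapped, the call was lost with upper-quartile scaling (0.04, adjusted p = 0.651) and without full-medium replicate 1 or 3 or EBSS replicate 1 or 2 (adjusted p of 0.0822, 0.0627, 0.0729 and 0.0789), and it was also lost without the filter on low counts (0.0587).

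MRPL48, a large-subunit protein specific to mitochondria, rose in each line. It was at 30.8, 33.0 and 29.5 CPM in WT in full medium and 39.4, 41.9 and 34.4 in EBSS, at 27.9, 32.0 and 30.6 and then 36.1, 38.0 and 32.9 in ATG7KO, and at 29.96, 30.85 and 34.71 and then 38.4, 38.3 and 35.3 in RB1CC1KO-labelled cells. The log2 fold changes were small, at 0.31 in WT (SE 0.09), 0.26 in ATG7KO (SE 0.09) and 0.23 in RB1CC1KO-labelled cells (SE 0.09). With upper-quartile scaling they came to 0.15, 0.10 and 0.09 and none was called (adjusted p of 0.115, 0.350 and 0.360). In ATG7KO the call was lost without full-medium replicate 1, EBSS replicate 1 or EBSS replicate 2 (adjusted p of 0.0754, 0.0885 and 0.195), and in RB1CC1KO-labelled cells without full-medium replicate 1, full-medium replicate 2 or EBSS replicate 2 (0.0824, 0.0535 and 0.0519).

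The other increases were found in some lines. MRPL10, the stalk-base protein that holds MRPL12, was at 53.1, 45.4 and 45.4 CPM in ATG7KO in full medium and 57.0, 63.2 and 62.2 in EBSS (log2 fold change 0.34, SE 0.07, edgeR adjusted p = 0.000203). In RB1CC1KO-labelled cells it was at 53.7, 49.4 and 51.8 CPM and then 64.9, 65.8 and 66.5 (0.35, SE 0.07, adjusted p = 7.07e-05), and in WT the value of 0.16 did not pass the test. These 2 calls on MRPL10 and that on MRPS18B in ATG7KO also held with upper-quartile scaling and without any one library. Its partner MRPL12 fell in the same libraries.

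Of the remaining increases, MRPS36 (0.34), MRPS9 (0.25), MRPL39 (0.19) and MRPS35 (0.16) were called in WT, and each call was lost with upper-quartile scaling (adjusted p of 0.255, 0.340, 0.692 and 0.896). The calls on MRPS36, MRPL39 and MRPS35 were lost without any of full-medium replicates 1 and 3 and EBSS replicates 1 and 2 of WT, with adjusted p between 0.0737 and 0.233. DESeq2 did not call these 3 either (0.0527, 0.0511 and 0.0613 in the same order), and MRPL39 and MRPS35 were not called without the filter on low counts (0.0764 and 0.113). That on MRPS9, whose media overlapped, was lost without full-medium replicate 1, EBSS replicate 1 or EBSS replicate 2 (0.105, 0.0781 and 0.131). In ATG7KO, MRPL49 (0.29) was lost without EBSS replicate 2 (0.0814), and MRPL44 (0.22) without full-medium replicate 2, EBSS replicate 1 or EBSS replicate 2 (0.0805, 0.0858 and 0.362) and without the filter on low counts (0.0612). MRPS5, the homologue of bacterial S5, rose in RB1CC1KO-labelled cells by 0.22 and was not called with upper-quartile scaling (adjusted p = 0.280), nor were MRPL49 (0.119) and MRPL44 (0.580) in ATG7KO.

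The 11 members called in no line were MRPL18, MRPL22, MRPL32, MRPL37, MRPL47, MRPL53, MRPL54, MRPL58, MRPS6, MRPS22 and MRPS30. MRPS30, a large-subunit protein in spite of its symbol, was at 75.3 ± 5.71 CPM in WT in full medium and 80.6 ± 5.00 in EBSS (log2 fold change 0.10, SE 0.06), with values of 0.03 and -0.04 in ATG7KO and RB1CC1KO-labelled cells. MRPL58, a peptidyl-tRNA hydrolase that became part of the large subunit, had values of 0.13, -0.01 and 0.04 (SE 0.08, 0.09 and 0.08). MRPL53 had between 3 and 50 reads in a library, and a difference of the members' median size was not detectable at this depth. With upper-quartile scaling MRPS30 was called lower in RB1CC1KO-labelled cells (-0.18, adjusted p = 0.00970).

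A property that no rule used, the number of exons, varied with the response. By the principal transcript in the annotation, all 6 members with 1 or 2 exons were lower in WT, as were 18 of 28 with 3 or 4 exons, 14 of 18 with 5 or 6, and 7 of 22 with 7 or more. Among all protein-coding genes tested the shares lower in WT were 49.5%, 43.4%, 40.9% and 26.9% in the same bins. The members lower in ATG7KO numbered 6, 19, 14 and 7 (52.3%, 46.7%, 40.5% and 23.2% of all protein-coding genes), and in RB1CC1KO-labelled cells 6, 20, 15 and 9 (56.2%, 47.7%, 42.7% and 25.6%). Spearman's rho between exon number and log2 fold change over the 74 members was 0.48 in WT, 0.54 in ATG7KO and 0.49 in RB1CC1KO-labelled cells, and over 12834 protein-coding genes 0.22, 0.29 and 0.29. The members' rho with coding length was 0.40, 0.54 and 0.38, with transcript length 0.06, 0.13 and 0.04, and with the mean log2 CPM 0.26, 0.45 and 0.37. These are descriptions across genes that share libraries, and exon number and coding length go together.

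**Figure D4:**
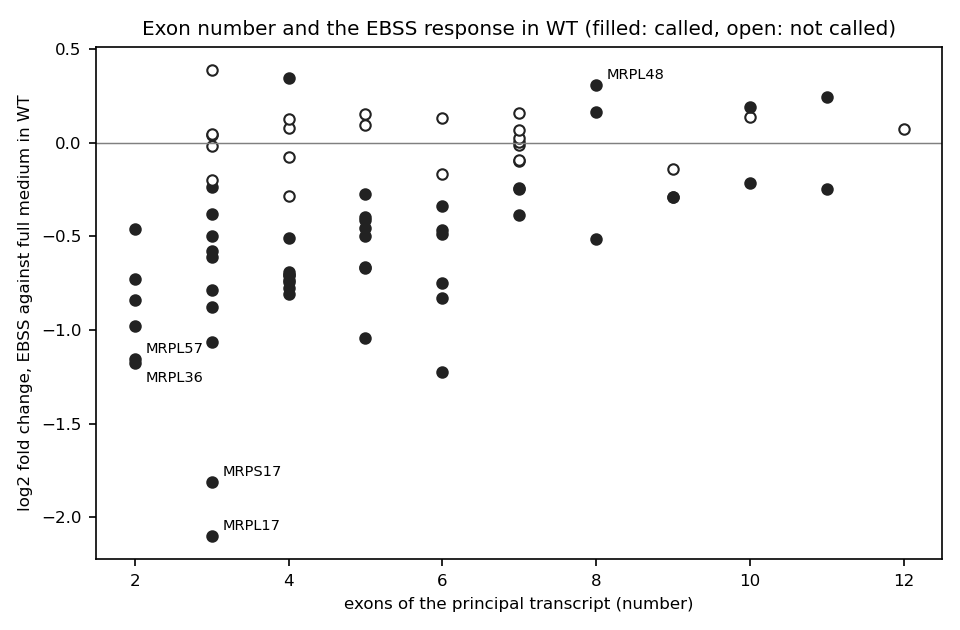
Number of exons of the principal transcript (horizontal axis) against the log2 fold change in EBSS against full medium in WT (vertical axis) for the 74 members, filled where called and open where not. All 6 members with 1 or 2 exons are filled and below 0, MRPL17 and MRPS17 with 3 exons lie lowest, and members with 7 or more exons spread on both sides of 0.

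The start regions of the members are shown because so many of the genes moved together. RefSeq promoter windows of GRCh38.p14, from 250 bases before to 50 bases after an annotated start, were found for 65 of the 74 members, with 81 windows. None was found for MRPL2, MRPL10, MRPL13, MRPL15, MRPL21, MRPL23, MRPL35, MRPS28 and MRPS36. Stretches of 4 windows follow, 5′ to 3′ on the strand of the gene, with a match in capitals.
MRPL17: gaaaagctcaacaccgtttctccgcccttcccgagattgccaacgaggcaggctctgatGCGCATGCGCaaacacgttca
MRPL3: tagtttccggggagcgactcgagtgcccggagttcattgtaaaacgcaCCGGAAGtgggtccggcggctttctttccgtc
MRPL52: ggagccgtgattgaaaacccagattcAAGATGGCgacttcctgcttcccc
MRPL18: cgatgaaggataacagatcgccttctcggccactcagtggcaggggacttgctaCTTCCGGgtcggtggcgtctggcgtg

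The MRPL17 stretch is chr11:6683401-6683480 on the minus strand, with capitals for the paired NRF1 half-sites (GCGC and TGCGC with any base between them) at positions -81 to -72 from the start. The MRPL3 stretch is chr3:131502972-131503051 on the minus strand, with capitals for CCGGAAG, the core bound by ETS factors such as GABP, at -32 to -26. The MRPL52 stretch is chr14:22829797-22829846 on the plus strand, with capitals for AAGATGGC, a YY1 motif, at -64 to -57. The MRPL18 stretch is chr6:159790387-159790466 on the plus strand and carries the ETS core on the opposite strand, at -26 to -20. MRPL17, MRPL3 and MRPL52 fell in every line, and MRPL18 was called in none.

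Motifs were searched on both strands, and overlaps between different motifs were allowed. All windows cover 27305 genes, including genes not tested here, so their shares are not those of expressed genes. Windows of a gene can overlap, so 1 site can be counted more than once, as for the YY1 motif in MRPL47 and MRPS12. The ETS core CCGGAAG was in 31 of the 81 member windows (38.3%) and in 10.3% of all 35116 windows. The YY1 motif AAGATGGC was in 21 (25.9%), against 2.89% of all windows, and 14 of its 22 matches began after the start, between positions 7 and 36, inside the transcribed part. The paired NRF1 half-sites were in 8 (9.88%) against 5.78%. With A as the base between them, as in the MRPL17 stretch, they were in 1 (1.23%) against 1.24%. TATAAA was in 3 (3.70%) against 11.5%, CCAAT in 27 (33.3%) against 34.6%, CACGTG in 8 (9.88%) against 7.26%, TGACGTCA in 1 (1.23%) against 1.85%, and TGATGCAA in 0 against 0.866%. The longer ETS form CCGGAAGT and the longer YY1 form, AAGATGGC followed by GGC, were in 17.3% and 11.1% of the member windows, against 4.14% and 0.849%.

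The 44 windows of the members lower in every line were set beside the 37 of the other members. The ETS core was in 43.2% and 32.4% of them, and the YY1 motif in 11 of 44 and 10 of 37. The paired NRF1 half-sites were in 7 of 44 and in 1 of 37, counts too small to read. A match is a description of the letters in the window, and binding was not measured.

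Listed regulators, among them factors known for these motifs, were measured as mRNAs, and not all of them rose. YY1 rose in every line, from 138, 141 and 149 CPM to 342, 329 and 331 in WT (log2 fold change 1.23, SE 0.06, edgeR adjusted p = 2.43e-19), and by 1.22 and 1.245 in ATG7KO and RB1CC1KO-labelled cells. GABPA, the DNA-binding subunit of GABP, rose by 0.75, 0.72 and 0.67, and NRF1 by 0.44, 0.53 and 0.54, in the order WT, ATG7KO and RB1CC1KO-labelled. GABPB1 was not called in WT (0.04) or in ATG7KO (0.10). PPARGC1B, a coactivator of mitochondrial genes, fell by 0.66 on the log2 scale in WT, 0.57 in ATG7KO and 0.56 in RB1CC1KO-labelled cells (values of -0.66, -0.57 and -0.56). MYC was called lower in WT (-0.23) and in ATG7KO (-0.23). Its mean in RB1CC1KO-labelled cells was 654 CPM in full medium and 577 in EBSS. Of 8 tested of 9 listed regulators of mitochondrial biogenesis, 3 were higher and 2 lower in WT, and 4 were higher and 2 lower in each of the other lines. Over all genes tested, 32.4%, 32.3% and 31.9% were higher and 32.1%, 30.6% and 33.3% lower in WT, ATG7KO and RB1CC1KO-labelled cells.

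Other genes of mitochondrial translation were read from lists. Of 5 ribosomal proteins under other names, GADD45GIP1 fell in every line (-0.46, -0.40 and -0.35), AURKAIP1 fell in WT (-0.50), and DAP3 and PTCD3 were higher in WT (0.22 and 0.19). The calls on DAP3 and PTCD3 in WT were lost with upper-quartile scaling (adjusted p of 0.365 and 0.633), that on DAP3 also without WT full-medium replicate 3 (0.0508) and that on PTCD3 without WT full-medium replicate 1 or EBSS replicate 1 (0.0502 and 0.123). CHCHD1 was lower in ATG7KO (-0.50) and RB1CC1KO-labelled cells (-0.24). In all, 2 of the 5 were lower in each line, and 2, 0 and 1 were higher in WT, ATG7KO and RB1CC1KO-labelled cells. The call in the last was on DAP3 (0.19) and was lost with upper-quartile scaling (adjusted p = 0.532). It was also lost without full-medium replicate 1 or 3 or EBSS replicate 2 of that line (0.0565, 0.0558 and 0.0598). Of all genes tested, 32.1%, 30.6% and 33.3% were lower and 32.4%, 32.3% and 31.9% higher in the same order.

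Of 13 tested of 14 translation factors, 7 were lower and 1 higher in WT, 5 and 1 in ATG7KO, and 8 and 1 in RB1CC1KO-labelled cells. The shares of all genes were 32.1%, 30.6% and 33.3% lower and 32.4%, 32.3% and 31.9% higher in the same order. MTFMT, which formylates the initiator tRNA, changed by -1.01, -1.03 and -1.60, and MTIF3, an initiation factor, by -0.71, -0.71 and -0.51. TACO1, a translational activator of a cytochrome oxidase subunit, changed by -0.63, -0.54 and -0.80. TSFM, the exchange factor of the mitochondrial elongation factor, changed by -0.51, -0.30 and -0.37, and its call in ATG7KO was lost without full-medium replicate 1 or EBSS replicate 1 (adjusted p of 0.149 and 0.0792).

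Assembly factors fell more often than they rose. Of 22 tested of 25, 13 were lower and 3 higher in WT, 12 and 6 in ATG7KO, and 14 and 4 in RB1CC1KO-labelled cells. All genes tested had shares of 32.1%, 30.6% and 33.3% lower and 32.4%, 32.3% and 31.9% higher in the same order. DDX28, a helicase for large-subunit assembly, went from 21.3, 19.4 and 19.7 CPM to 5.11, 4.07 and 3.52 in WT (log2 fold change -2.25, SE 0.14, edgeR adjusted p = 1.06e-15), and changed by -2.42 and -2.98 in ATG7KO and RB1CC1KO-labelled cells. MALSU1, which keeps the subunits apart during assembly, changed by -1.36, -1.28 and -1.44. MTERF3 changed by -0.95, -0.80 and -1.41, and MRM2, an rRNA methyltransferase, by -0.74, -0.66 and -0.97.

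Genes for mitochondrial DNA expression and maintenance were divided. Of 8 tested, 4 were higher and 1 lower in WT, and 4 were higher and 3 lower in each of the other lines. Among all genes tested, 32.4%, 32.3% and 31.9% were higher and 32.1%, 30.6% and 33.3% lower in WT, ATG7KO and RB1CC1KO-labelled cells. LRPPRC, which stabilises mitochondrial mRNAs, rose by 0.60, 0.57 and 0.54, and POLRMT, the mitochondrial RNA polymerase, by 0.43, 0.66 and 0.74. TWNK, the mitochondrial DNA helicase, changed by -0.40, -0.41 and -0.70. POLG, the mitochondrial DNA polymerase, was higher by 0.27, 0.32 and 0.20, and with upper-quartile scaling it was not called in WT (0.12, adjusted p = 0.0987) or in RB1CC1KO-labelled cells (0.06, adjusted p = 0.436).

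The lines differed little in these genes in full medium. Both comparisons use the same WT libraries. In ATG7KO, 2 members were higher and 5 lower than in WT, 9.46% of the 74 against 10.5% of all genes tested (4.47% higher and 6.07% lower). In RB1CC1KO-labelled cells, 5 were higher and 2 lower, 9.46% against 17.2% of all genes (8.30% higher and 8.87% lower). The median log2 fold change of the members was 0.02 in ATG7KO and 0.08 in RB1CC1KO-labelled cells, and that of all genes was -0.003 and 0.02. The libraries did not overlap, with the line above WT, for 9 members in ATG7KO (13.6% of all genes) and 14 in RB1CC1KO-labelled cells (16.7%), and with the line below WT for 10 (15.5%) and 2 (14.8%).

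The called differences were all smaller than 2-fold. MRPL33, the homologue of bacterial L33, was at 16.2, 16.8 and 14.6 CPM in WT, 21.1, 22.2 and 18.8 in ATG7KO and 21.5, 20.2 and 25.1 in RB1CC1KO-labelled cells. Both lines lay above WT without overlap, with log2 fold changes of 0.38 (SE 0.13, edgeR adjusted p = 0.0454) and 0.48 (SE 0.12, adjusted p = 0.00594). MRPS14 was higher in ATG7KO (0.30), and MRPS18A (-0.30), MRPS18B (-0.27), MRPS2 (-0.26), MRPL49 (-0.25) and MRPL37 (-0.22) were lower there. MRPS18B went from 87.8, 77.4 and 91.2 CPM in WT to 72.0, 71.9 and 67.4 in ATG7KO. In RB1CC1KO-labelled cells MRPS36 (0.50), MRPS28 (0.42), MRPL40 (0.32) and MRPS31 (0.31) were higher, and MRPS6, the homologue of bacterial S6 (-0.37), and MRPL12 (-0.36) were lower.

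**Figure D5:**
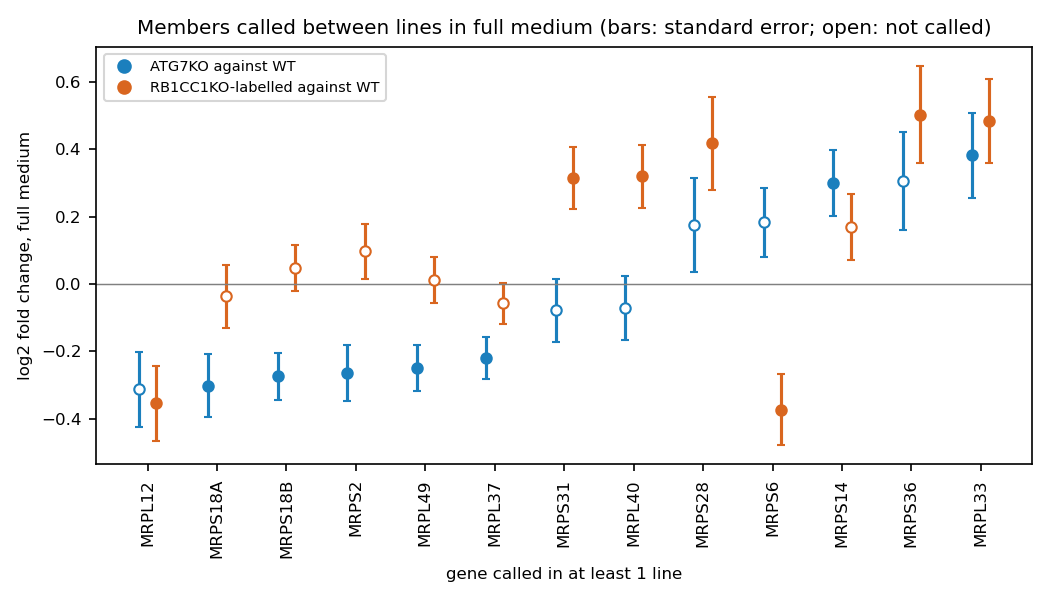
Log2 fold change against WT in full medium (vertical axis) with its standard error (bars) for the members called in at least 1 line (horizontal axis), blue for ATG7KO and orange for RB1CC1KO-labelled cells, filled where called and open where not. MRPL33 is filled and above 0 in both lines, and the highest value is that of MRPS36 in RB1CC1KO-labelled cells (0.5025).

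Each of these 7 calls in ATG7KO and 7 in RB1CC1KO-labelled cells was lost when one or another library was left out. In ATG7KO, MRPL33 was lost without any of WT replicates 1 to 3 or ATG7KO replicates 1 and 2 (adjusted p between 0.0590 and 0.184), and MRPS14 without WT replicate 3 or any ATG7KO replicate (0.0957 to 0.290) and without the filter on low counts (0.0520). MRPS18A was lost without WT replicate 1 or 3 or ATG7KO replicate 1 or 3 (0.0851 to 0.132), and MRPS2 without WT replicate 1 or 2 or ATG7KO replicate 1 or 2 (0.0523 to 0.195), and MRPS2 also with upper-quartile scaling (0.0658). MRPL37 was lost without WT replicate 1 or ATG7KO replicate 2 or 3 (0.0748 to 0.0903), MRPL49 without WT replicate 3 (0.126) or ATG7KO replicate 3 (0.124), and MRPS18B without WT replicate 3 (0.0666). In RB1CC1KO-labelled cells, replicate 3 of that line alone decided MRPL33 (0.0708 without it), and its loss also ended the calls on MRPS36 (0.218), MRPS28 (0.247), MRPL40 (0.0954), MRPS31 (0.176) and MRPL12 (0.0634). Other libraries that did so were WT replicate 1 for MRPS36 (0.0784), MRPL40 (0.116) and MRPS31 (0.115), WT replicate 2 for MRPS28 (0.0804), MRPS6 (0.0797) and MRPL12 (0.0566), WT replicate 3 for MRPS31 (0.0513), MRPS28 (0.142) and MRPL12 (0.0688), RB1CC1KO-labelled replicate 1 for MRPS6 (0.0717), and RB1CC1KO-labelled replicate 2 for MRPS28 (0.0962) and MRPL12 (0.127).

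In EBSS the ATG7KO line did not differ from WT in any member that passed the test. The count was 0 of 74 with edgeR's quasi-likelihood test and 0 with DESeq2, with 3 members at an unadjusted p below 0.05, and 13.2% of all genes were called (6.07% higher and 7.17% lower). In RB1CC1KO-labelled cells in EBSS, 9 members were higher and 2 lower than in WT, 14.9% of the 74 against 31.6% of all genes (14.8% higher and 16.9% lower). Both comparisons again share their WT libraries. With upper-quartile scaling MRPL4, MRPS5 and MRPL54 were not called (adjusted p of 0.0826, 0.0560 and 0.0521). With only the compared groups in the fit MRPL4, MRPS25 and MRPS5 were not called (0.0727, 0.0510 and 0.0828), nor was MRPS5 without the filter on low counts (0.116).

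MRPL33 was higher in RB1CC1KO-labelled cells in EBSS as well, at 19.1, 17.2 and 16.4 CPM against 12.7, 14.7 and 11.8 in WT (log2 fold change 0.43, SE 0.13). MRPL55 (0.38), MRPS26, a small-subunit protein specific to mitochondria (0.35), MRPL54 (0.33) and MRPL40 (0.29) were also higher, and MRPL10 was higher by 0.26. The other increases were in MRPS25, MRPL4 and MRPS5. MRPS6 was lower (-0.40), at 25.6, 26.5 and 21.7 CPM against 38.8, 31.9 and 27.1, and MRPL17 was lower (-0.37, edgeR adjusted p = 0.0187). MRPL10 was the call that held without any one library. That on MRPL33 was lost without WT EBSS replicate 3 (adjusted p = 0.0581), that on MRPS6 without WT EBSS replicate 1 (0.10), and that on MRPL17 without WT EBSS replicate 2 or RB1CC1KO-labelled EBSS replicate 2 or 3 (0.0558, 0.0867 and 0.0502). MRPL55 and MRPS26 were lost without WT EBSS replicate 2 (0.103 and 0.0740), and without RB1CC1KO-labelled EBSS replicate 3 and replicate 1 (0.0703 and 0.0806). MRPL40 was lost without WT EBSS replicate 1 or 3 or RB1CC1KO-labelled EBSS replicate 3 (0.0765, 0.0563 and 0.129), and MRPL54 without any WT EBSS replicate or RB1CC1KO-labelled EBSS replicate 1 or 3 (0.0629 to 0.217). MRPS25 was lost without WT EBSS replicate 3 or RB1CC1KO-labelled EBSS replicate 3 (0.134 and 0.0688), MRPL4 without WT EBSS replicate 1 or 2 or RB1CC1KO-labelled EBSS replicate 1 or 3 (0.109 to 0.210), and MRPS5 without WT EBSS replicate 1 or 3 or RB1CC1KO-labelled EBSS replicate 2 or 3 (0.0898 to 0.161).

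The response to EBSS itself was compared between lines as an interaction. For ATG7KO against WT, 0 of 74 members passed edgeR's test, 8 had an unadjusted p below 0.05, DESeq2 called 1, and 1.05% of all genes were called (0.369% higher and 0.685% lower). For RB1CC1KO-labelled cells against WT, 0 passed, 7 had an unadjusted p below 0.05, DESeq2 called 0, and 8.16% of all genes were called (2.68% higher and 5.47% lower). The members' median difference of response was -0.02 in each, and single differences ran from -0.86 to 0.40 and from -0.77 to 0.43 on the log2 scale. The difference for MRPS18B in ATG7KO was 0.35 (SE 0.10, adjusted p = 0.0709), and that for MRPS36 was -0.50 (SE 0.21) in ATG7KO and -0.43 (SE 0.20) in RB1CC1KO-labelled cells. A p that misses the threshold does not show that the lines respond alike.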

How the data were processed

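Gene counts were deposited by the authors as whole-number reads per gene, without normalization, for 18 libraries. Per the labels' protocols, poly(A) RNA was made into directional libraries and read as 75 bp single-end reads. Per the submitters' processing notes, with no roles named, HTSeq 0.6.1p1 and STAR 2.4.2a were among the tools, besides DESeq2, edgeR and Picard, and the build was GRCh37 (hg19). Strand setting and annotation release were not given in the sources used here. All 5 summary lines were left out; reads in no gene were 9.39% to 15.1% of reads, and those in several genes 2.08% to 2.42%.

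Names, exons and lengths came from GENCODE 29 on GRCh38, which matched 52526 of 63677 identifiers. Since that build differs, no gene coordinates are given from it. Counts were analysed with edgeR 4.0.16 (R 4.3.3): filterByExpr, TMM scaling and 1 robust quasi-likelihood fit over the 6 groups, with 9 comparisons and Benjamini-Hochberg adjustment over 15179 genes. SE is the log2 fold change divided by the square root of F. The common biological coefficient of variation was 6.72%. The fit was also run on simulated data, which cannot show how far these libraries depart from its model. Libraries of a group differed beyond sampling noise.

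Alternatives were upper-quartile scaling, DESeq2 1.42.0, no filter, only the compared groups, a replicate block and leaving out each library. The members and lists were chosen with earlier results of these data known. Named genes were MRPL3, MRPS7, the MRPS18 family, MRPS30, MRPS36 and MRPL58; per EBSS comparison the 8 largest called, non-overlapping changes in each direction (5 between lines); members not kept; and up to 4 genes of each list by p in WT. MRPS9, MRPS25, MRPL4, MRPL22, MRPL32, MRPL47, MRPS22, DHX30 and others outside the rule were named after their values were seen.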

Additional observations from a re-analysis of the deposited data

Results flagged for a closer look

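No member of the ribosomal protein set differed in its EBSS response between lines past the test, but 4 genes of the related lists did, all between RB1CC1KO-labelled cells and WT (edgeR's quasi-likelihood test of the interaction). Over all genes tested, 8.16% passed that test for RB1CC1KO-labelled cells against WT. Of the lists, 1 of 13 translation factors and 1 of 8 genes for mitochondrial DNA expression and maintenance passed. Among 22 assembly factors, 1 was higher and 1 lower. Of the 5 ribosomal proteins under other names and of the 8 regulators, 0 passed. Such calls were therefore about as frequent in the lists as among all genes. MTFMT fell further in RB1CC1KO-labelled cells, with a difference of -0.59 on the log2 scale (SE 0.12, adjusted p = 0.00142): it was at 10.5, 12.4 and 12.2 CPM in EBSS there and at 18.9, 18.9 and 16.9 in WT. DDX28 fell further by a difference of -0.73 (SE 0.23, adjusted p = 0.0404), and TWNK by -0.30 (SE 0.09, adjusted p = 0.0405). DHX30, a helicase of mitochondrial ribosome assembly, had a difference of 0.29 (SE 0.09, adjusted p = 0.0398), with 204 ± 12.4 CPM in full medium and 207 ± 13.3 in EBSS in WT against 199 ± 12.4 and 248 ± 16.2 in RB1CC1KO-labelled cells.

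The call on MTFMT held without any one library. That on DDX28 was lost without 8 of the 12 libraries compared (WT full replicates 2 and 3, WT EBSS replicates 1 and 2, RB1CC1KO-labelled full replicates 2 and 3 and EBSS replicates 1 and 2; adjusted p 0.0607 to 0.204), and that on DHX30 without 7 (WT full replicates 1 and 3, WT EBSS replicates 1 and 2, RB1CC1KO-labelled full replicate 2 and EBSS replicates 1 and 3; 0.0563 to 0.131). That on TWNK was lost without 10 (every WT library, RB1CC1KO-labelled full replicates 2 and 3 and EBSS replicates 1 and 2; 0.0568 to 0.150). With only the compared groups in the fit, DDX28 (adjusted p = 0.0813) and TWNK (0.0877) were not called. TWNK was not called without the filter on low counts either (0.0878). The cause of these differences was not tested.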

How the results depend on the processing

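No called value reversed under any alternative, and the EBSS counts of members called lower stayed within 1.5 times under all of them. Members called higher in EBSS were fewer with upper-quartile scaling (0 in WT, 2 in ATG7KO, 1 in RB1CC1KO-labelled cells), with DESeq2 (2 in WT) and without a filter (3 in WT). Without a filter, 1 member was higher in ATG7KO than in WT in full medium. The response difference of ATG7KO gave 1 higher member with DESeq2 and 1 without a filter, and that of RB1CC1KO-labelled cells 1 lower without a filter. Upper-quartile scaling put the summed level at 4421 CPM in WT full medium, 3220 in WT EBSS, 4402 and 3200 in ATG7KO full medium and EBSS, and 4570 and 3312 in RB1CC1KO-labelled cells in full medium and EBSS. The cause of these shifts was not tested.

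Leaving out 1 library at a time gave, in EBSS, 42 to 46 lower and 1 to 8 higher members in WT, 43 to 50 and 2 to 5 in ATG7KO, and 44 to 50 and 2 to 5 in RB1CC1KO-labelled cells. In full medium it gave 0 to 2 higher and 2 to 4 lower in ATG7KO against WT, and 0 to 8 and 0 to 2 in RB1CC1KO-labelled cells. In EBSS it gave 0 higher and 0 to 2 lower in ATG7KO, and 5 to 10 and 1 to 4 in RB1CC1KO-labelled cells. Response differences gave 0 to 2 higher and 0 lower for ATG7KO, and 0 to 1 in each direction for RB1CC1KO-labelled cells. An arm left with 2 libraries shares the spread of all groups.

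Replicate numbers were not used as pairs in the main fit. Same-numbered libraries had correlations of deviations between -0.12 and 0.30, and no comparison had every pair above 0.1. For RB1CC1KO-labelled cells against WT, 2 of 3 pairs were above 0.1 in full medium and 2 of 3 in EBSS. With 3 pairs in a comparison, an absence of pairing cannot be shown. With the replicate block, 2 members had a higher response in ATG7KO than in WT and 1 a lower response in RB1CC1KO-labelled cells, and no other count moved by over 1.5 times. Depth limits MRPL53, MRPL38 and MRPS17 most.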
